A study of Arabidopsis thaliana with 36 samples.

Results

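The change of the flg22 response between 2 h and 24 h was measured as a difference of differences: Col minus fls2 at 24 h, less Col minus fls2 at 2 h. The contrast is over 12 of the 36 libraries of the series, 3 in each of 4 groups, chosen by their genotype, treatment and time labels and not by any measured value. Col is the wild type Col-0. fls2 is a mutant of FLS2, the receptor kinase for flg22, a peptide from bacterial flagellin; the allele was not stated in the labels used here. Whole Arabidopsis thaliana seedlings of both genotypes were grown on agar with 25 mM sucrose at 22 °C under 16 h of light, moved at 6 days of age to liquid medium with 25 mM sucrose for 1 day, and given 1 µM flg22. They were sampled 2 h or 24 h later. All 4 groups therefore received the peptide, sucrose and the move to liquid, and fls2 stands in for untreated plants. A difference between Col and fls2 includes any effect of the mutation itself, and a change with time in fls2 includes age and time in liquid. The 3 libraries of a group come from 3 independent trials, per the series' design text. The fit also held the 6 stp1/4/13 libraries of both times, which share its gene filter, scaling and spread but are not in the contrast; with the 12 libraries alone 2015 genes had a called interaction, against 2262.

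Plants sense flg22 when FLS2 pairs with the co-receptor BAK1 and passes the signal to cytoplasmic kinases such as BIK1. Calcium-dependent and MAP kinase cascades then act on transcription factors, among them WRKY proteins, which bind the W-box (TTGACC or TTGACT). Known outputs are reactive oxygen, danger peptides, indole-derived defence compounds and the hormones ethylene, jasmonate and salicylic acid, with growth held back in seedlings. The genes of each pathway come from lists written with earlier results of these data known, and genes named below without per-library levels were in part chosen after their values were seen. The comparison asked which parts of this response faded, which lasted and which appeared late.

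Library totals ranged from 15994904 to 19618995 counts. FLS2 (AT5G46330) was at or below 0.203 CPM (a gene's counts relative to its library's total, on a common scale) in all 6 fls2 libraries and at or above 12.9 CPM in all 6 Col libraries, as labelled. A pair of libraries stood apart from the rest of their groups, the 24 h libraries of replicate 3. On the first and second principal components, which held 46.6% and 29.2% of the variance, Col library 3 of 24 h lay at -29.7 and 8.83. The other Col libraries of 24 h lay at -70.3 and 63.9, and at -58.3 and 50.5. fls2 library 3 of 24 h lay at 48.9 and 12.7, against 6.59 and 54.8, and 29.5 and 43.7, for the other 2. The interaction was called for 2233 genes without Col library 3 of 24 h, 2325 without fls2 library 3 of 24 h, and 2281 with the whole of replicate 3 left out, against 2262 with every library. Of the 2262, 1742 were called in the same direction without replicate 3. Fewer genes were called without the other replicate numbers: 495 without replicate 1 and 479 without replicate 2. Both of those fits keep the 24 h libraries of replicate 3, and the cause of the lower counts was not tested. Markers of guard cells (6 genes) and of root identity (6 genes) were detected in every group; none was without counts. Their summed level at 24 h was 151 to 163 CPM in Col and 122 to 144 CPM in fls2 for guard cells, and 29.7 to 53.6 against 44.5 to 54.1 CPM for root identity.

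Of 21463 genes tested, 2262 (10.5%) had an interaction of genotype and time, 966 positive (4.5%) and 1296 negative (6.04%), by edgeR's quasi-likelihood test at an adjusted p below 0.05. A negative value means that Col relative to fls2 was lower at 24 h than at 2 h. The median over all genes tested was -0.01 on the log2 scale. Col and fls2 differed in 7476 genes (34.8%) at 2 h, 4024 higher (18.7%) and 3452 lower (16.1%) in Col. At 24 h they differed in 3984 genes (18.6%), 2355 higher (11%) and 1629 lower (7.59%); with the replicate numbers as a block within each time, 2601 were lower. Without Col library 1 of 2 h, 597 interactions were positive. The number lower at 24 h was 955 without Col library 1 of 24 h and 1008 without Col library 2 of 24 h.

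Each gene was then placed by its calls at 2 h, at 24 h and in the interaction. Lost genes were called at 2 h and not at 24 h, with an opposing interaction: 568 had been higher in Col and 702 lower. Reduced genes were called the same way at both times with an opposing interaction, 479 higher and 52 lower. Kept genes were called the same way at both times without a called interaction, 1199 higher and 671 lower. Increased genes, 26 higher and 9 lower, moved further from fls2. Late genes were called at 24 h only, with a matching interaction, 130 higher and 202 lower. Reversed genes were called in opposite directions at the 2 times, 35 ending higher in Col and 17 ending lower. A further 4924 genes had calls that fit none of these: 3718 were called at 2 h only and 1164 at 24 h only with no called interaction, and 42 in the interaction only. These cannot be said to have faded or arisen. Of the genes that remained, 12449 had no call. Since a missed call is not an absent effect, kept and lost depend on power. With true log2 changes of 2 added to simulated counts, 66 of 100 were called in the interaction, and 10 of 100 with changes of 1. The changes were added to Col at 24 h alone. The simulation gave 80 calls in all, against 2262 in the data, so its recovery need not hold for the data. The tests at 2 h and at 24 h were not scored.

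**Figure D1:**
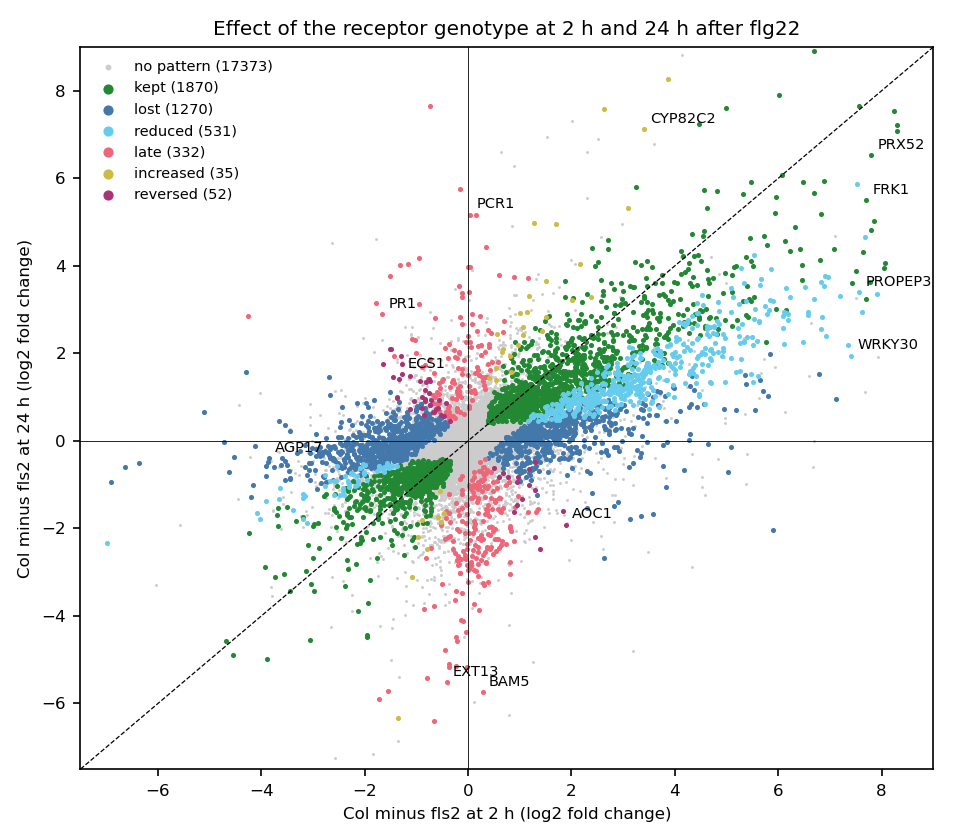
Each point is 1 of 21463 tested genes, with the log2 fold change of Col over fls2 at 2 h on the x axis and at 24 h on the y axis, coloured by pattern with the number of genes in brackets; the dashed line marks equal effects and 6 genes lie outside the axes. Reduced genes lie between the line and the x axis, and late genes along the y axis. Lost genes lie on either side of the x axis. Their median 24 h effect was 0.17 for lost higher and -0.09 for lost lower genes.

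Pattern counts varied with single libraries. Without Col library 1 of 2 h, lost genes numbered 375 higher and 426 lower, and without fls2 library 2 of 2 h the lost higher genes numbered 369. Kept lower genes numbered 377, 403 and 1065 without Col libraries 1, 2 and 3 of 24 h, and 440 without fls2 library 2 of 24 h. Late higher genes numbered 82 without fls2 library 2 of 24 h. The small classes moved most: reduced lower genes ranged from 15 without Col library 2 of 24 h to 56 without Col library 3 of 24 h, increased higher genes from 13 without fls2 library 1 of 2 h to 34 without fls2 library 1 of 24 h, increased lower genes from 1 without fls2 library 2 of 2 h to 19 without Col library 3 of 24 h. Reversed genes ending higher fell to 16 without Col library 1 of 2 h, and those ending lower numbered 9 without Col library 1 and 41 without Col library 3 of 24 h.

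In most of the lost, reduced and late genes the time change was called in Col alone. Among the 568 lost higher genes, the change from 2 h to 24 h was called in Col alone for 326, in fls2 alone for 127, in both for 85 and in neither for 30. For the 702 lost lower genes it was called in Col alone for 519 and in fls2 alone for 97. Of the 479 reduced higher genes, 254 were called in Col alone, 84 in fls2 alone and 121 in both. Late genes were called in Col alone for 101 of 130 higher and 158 of 202 lower genes. The time change was called for 7022 genes (32.7%; 17.1% rose and 15.7% fell) in Col and 4245 (19.8%; 11.9% rose and 7.93% fell) in fls2. The fls2 count was the less stable: its 2544 rises and 1701 falls became 545 and 205 without fls2 library 1 of 24 h, 1247 and 743 without fls2 library 2 of 24 h, 667 and 521 without fls2 library 2 of 2 h, and 1527 and 1124 without fls2 library 3 of 2 h. With all libraries of replicate 2 left out, no fls2 time change was called in either direction. Across single libraries left out, the lost higher genes called in Col alone ranged from 215 to 415 and the lost lower genes from 305 to 538, both lowest without Col library 1 of 2 h.

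**Figure D2:**
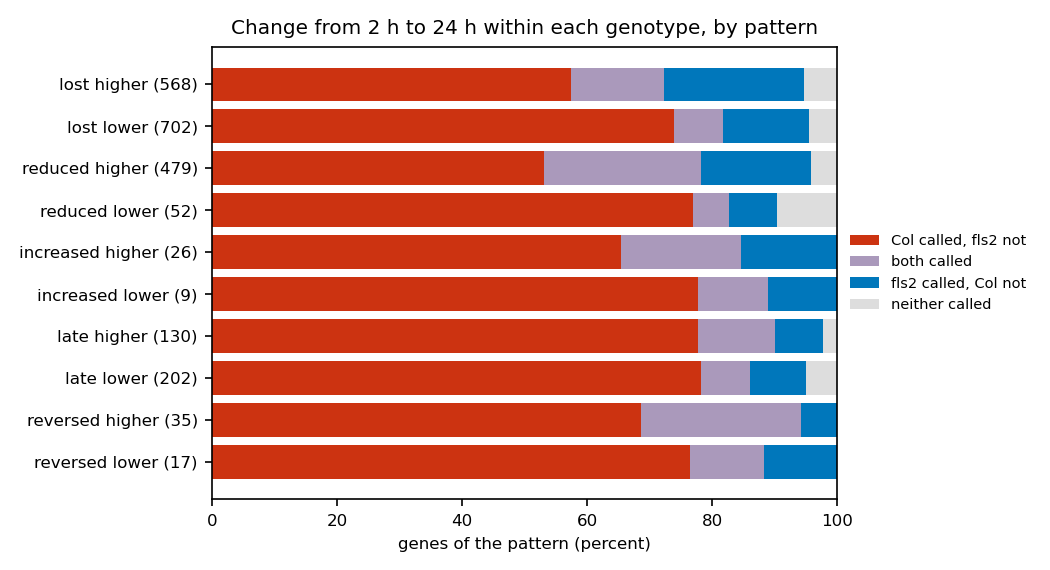
For each pattern, the bars give the percent of its genes whose change from 2 h to 24 h was called in Col only, in both genotypes, in fls2 only or in neither; the number of genes is in brackets. Col only is the longest segment in every pattern shown.

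Libraries taken at 10 h after flg22, counted in a separate table and fitted on their own, place these patterns between the 2 times. At 10 h Col and fls2 differed in 10035 of 19561 genes tested (51.3%), 24.9% higher and 26.4% lower in Col. The 10 h call had the same direction for 98.3% of reduced higher genes, 94.6% of kept higher and 93.1% of kept lower genes. It did for 63.4% of lost higher and 50.2% of lost lower genes, both still above the share of all genes called that way. Among late genes, 79.5% of those higher and 77.4% of those lower were already called at 10 h. The 10 h libraries hold 9462067 to 11309472 counts and their time cannot be told apart from their table.

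**Figure D3:**
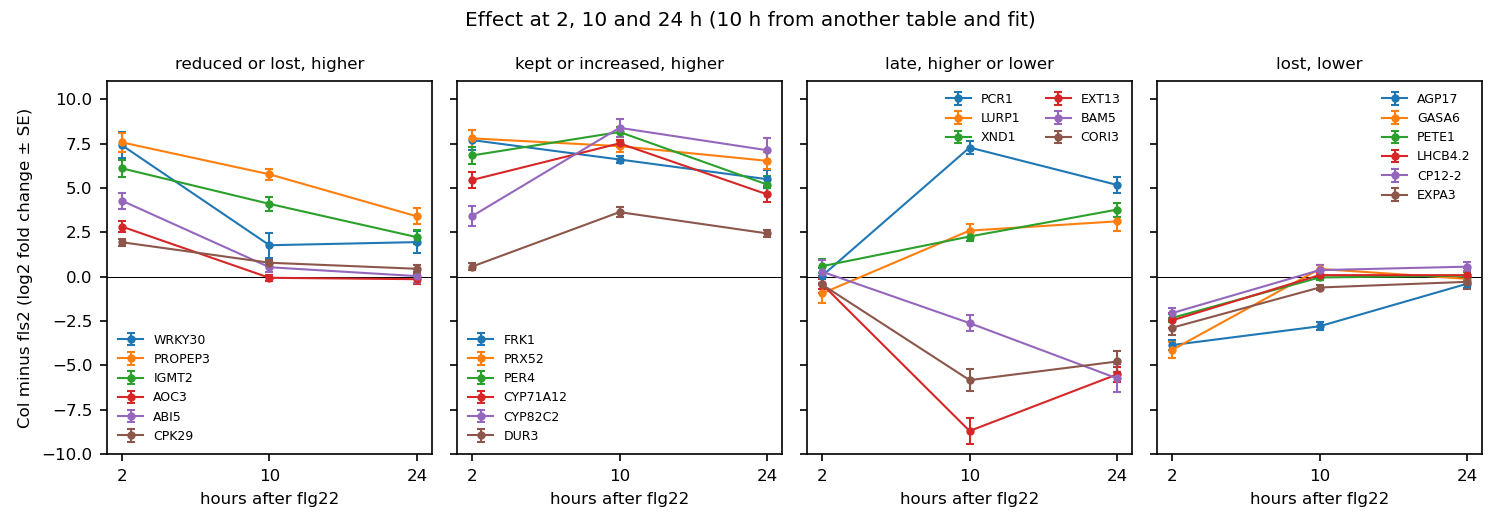
The log2 fold change of Col over fls2 (± SE, n = 3 libraries per group) is plotted at 2, 10 and 24 h for 6 genes of each kind named above the panels; the 10 h values come from another table and fit. The 6 late genes lie between -0.94 and 0.59 at 2 h and away from 0 at both later times; of the lost lower genes, AGP17 is still at -2.80 at 10 h.

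Genes of flg22 perception and early signalling were higher in Col at 2 h and less so at 24 h. Of 31 tested genes in a list of pattern-triggered immunity genes, 14 had a negative and 3 a positive interaction, with a median of -1.64 (6.04% and 4.5% of all genes tested, median -0.01). The positive genes were the early-response gene PHI-1, LURP1 and the peroxidase PRX34. WRKY30 (AT5G24110), a transcription factor induced early in defence, had 81.5, 101 and 51 CPM in the 3 Col libraries at 2 h and 0.377, 0.579 and 0.405 CPM in fls2. At 24 h it had 1.34, 3.38 and 7.82 CPM in Col and 1.87, 0.868 and 0.582 CPM in fls2. The groups were far apart at 2 h and overlapped at 24 h, where the difference still passed the test (1.95 ± 0.64, edgeR adjusted p = 0.039). Its interaction was -5.46 ± 0.97, edgeR adjusted p = 0.0015.

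PROPEP3 (AT5G64905), which encodes the precursor of a danger peptide sensed by the PEPR receptors, had 188, 133 and 169 CPM in Col and 1.13, 0.174 and 1.22 CPM in fls2 at 2 h. Its levels were 19.4, 13.7 and 26.3 CPM in Col and 1.48, 2.6 and 1.55 CPM in fls2 at 24 h. Every Col library stayed above every fls2 library at both times, and the effect was reduced from 7.57 ± 0.54 to 3.40 ± 0.46 (interaction -4.17 ± 0.66, edgeR adjusted p = 0.00067). PROPEP2 had an interaction of -3.23 ± 0.67, and PROPEP1 was called at 2 h only, with no called interaction (-1.87). Reduced transcription factors on the list were WRKY22, WRKY30, WRKY33, WRKY53, ERF5, ZAT6 and the zinc finger gene SZF1, and ERF6 was lost. WRKY29, ERF105 and ZAT10 were kept.

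Because WRKY factors act on many of these genes, the 250 bases before each annotated gene start in the RefSeq annotation of TAIR10.1 were searched on both strands for the W-box. Of 21355 windows of tested genes, 28.7% held at least 1. The share was 54.5% in reduced higher genes, 46.3% in lost higher, 45.2% in kept higher and 61.5% in the 26 increased higher genes. It was 28.5% in late higher, 29.7% in late lower, 21.4% in lost lower and 19.7% in kept lower genes. At least 2 were found in 22.1% of reduced higher windows, 15.7% of lost higher windows, 7.69% of late higher windows and 6.16% of all windows. A match is only a match of letters. The other motifs were searched on both strands too. CGCGTT was in 5.63% of lost higher, 5.64% of reduced higher and 1.54% of late higher windows, against 2.84% of all. The G-box, CACGTG, was in 8.45% of lost higher and 5.38% of late higher windows, against 7.18% of all. TGACG, the core bound by TGA factors, was in 21.3% of lost higher, 21.7% of reduced higher and 23.7% of kept higher windows, against 19.5% of all. The GCC-box, GCCGCC, was in 1.99% of all windows and 2.51% of reduced higher windows. The evening element, AAAATATCT, was in 2.41% of all windows and 1.67% of reduced higher windows.

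The windows of 6 genes are printed to show these letters beside the time course of each gene: 2 reduced genes, 1 kept, 1 increased and 2 late. They read 5′ to 3′ on the gene's strand and end at the base before the annotated start. W-boxes of either orientation are in capitals. Coordinates are those of TAIR10.1: WRKY30 chr5:8154711-8154960, minus strand; PROPEP3 chr5:25939312-25939561, plus strand; FRK1 chr2:8329945-8330194, minus strand; CYP82C2 chr4:15462100-15462349, plus strand; PCR1 chr1:5133861-5134110, minus strand; LURP1 chr2:6213367-6213616, plus strand.
WRKY30 (reduced): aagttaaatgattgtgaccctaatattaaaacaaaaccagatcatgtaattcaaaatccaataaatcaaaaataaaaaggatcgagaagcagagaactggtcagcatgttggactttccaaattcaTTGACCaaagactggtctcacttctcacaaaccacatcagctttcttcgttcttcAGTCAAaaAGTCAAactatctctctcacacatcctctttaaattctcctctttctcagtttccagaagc
PROPEP3 (reduced): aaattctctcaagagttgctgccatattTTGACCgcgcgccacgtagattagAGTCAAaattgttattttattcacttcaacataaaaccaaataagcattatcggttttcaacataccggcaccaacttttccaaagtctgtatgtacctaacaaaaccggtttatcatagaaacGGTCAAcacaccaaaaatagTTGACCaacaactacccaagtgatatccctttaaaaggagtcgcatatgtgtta
FRK1 (kept): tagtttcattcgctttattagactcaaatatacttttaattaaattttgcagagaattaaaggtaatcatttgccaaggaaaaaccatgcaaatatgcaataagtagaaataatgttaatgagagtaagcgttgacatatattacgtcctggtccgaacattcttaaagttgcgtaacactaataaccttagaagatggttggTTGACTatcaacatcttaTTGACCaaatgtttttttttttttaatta
CYP82C2 (increased): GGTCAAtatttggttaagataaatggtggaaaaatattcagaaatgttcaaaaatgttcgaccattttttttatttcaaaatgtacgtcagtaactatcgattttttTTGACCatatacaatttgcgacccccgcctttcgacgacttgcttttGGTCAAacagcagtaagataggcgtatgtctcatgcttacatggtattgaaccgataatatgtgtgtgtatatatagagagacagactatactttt
PCR1 (late): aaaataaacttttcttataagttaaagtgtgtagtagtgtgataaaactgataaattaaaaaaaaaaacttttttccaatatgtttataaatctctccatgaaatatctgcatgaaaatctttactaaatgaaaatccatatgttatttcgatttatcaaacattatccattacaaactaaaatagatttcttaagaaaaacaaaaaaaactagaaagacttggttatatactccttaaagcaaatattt
LURP1 (late): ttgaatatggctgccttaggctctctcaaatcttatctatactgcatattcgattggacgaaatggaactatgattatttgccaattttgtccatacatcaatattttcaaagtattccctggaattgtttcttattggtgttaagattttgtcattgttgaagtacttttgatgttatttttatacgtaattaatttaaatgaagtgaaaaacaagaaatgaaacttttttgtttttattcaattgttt
The windows held 3 W-boxes for WRKY30, 4 for PROPEP3, 2 for FRK1 and 3 for CYP82C2, and 0 for the late genes PCR1 and LURP1. In WRKY30 the nearest began 61 bases and in FRK1 29 bases before the start. No W-box was found in the windows, not printed, of the kept genes PRX52, PER4 and CYP71A12. Nor was any found for the increased genes UPI, WRKY61, DUR3 and EARLI1. The printed windows therefore do not stand for their patterns.

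In a list of 23 tested receptors, co-receptors, kinases and ubiquitin ligases, 14 had a negative and 0 a positive interaction (median -1.37; 6.04% of all genes were negative). Of the other 9, 3 were kept, 5 had no call and 1 fell in no pattern. At 2 h all of EFR, the receptor for bacterial EF-Tu, CERK1 and LYK5 for chitin, BAK1, BKK1, BIR1, IOS1 and BIK1 were higher in Col, and all of these were reduced at 24 h. RLP23, the Pep receptor PEPR1 and the kinase PBL1 were lost. SOBIR1 and BIR2 were kept, and so was FLS2, the gene mutated in fls2. The U-box ubiquitin ligases PUB22, PUB23 and PUB24, which dampen the flg22 response, were all reduced. PUB23 (AT2G35930) had 234, 185 and 203 CPM in Col and 7.81, 8.17 and 8.15 CPM in fls2 at 2 h. It had 42.5, 48.3 and 35.5 CPM in Col and 14, 7.92 and 8.05 CPM in fls2 at 24 h. The groups did not overlap at either time, and the Col level at 24 h lay between the 2 h levels of both genotypes (interaction -2.61 ± 0.32, edgeR adjusted p = 0.00011). PUB24 (-2.78 ± 0.49) was called as rising with time in fls2 (1.74 ± 0.37) as well as falling in Col (-1.04 ± 0.32).

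Among downstream kinases, most held no called interaction, which does not show that their effects lasted. Of all genes tested, 6.04% were negative. Of 13 MAP kinase cascade genes, 2 were negative: the phosphatase PP2C5, which acts on MAP kinases (-2.75 ± 0.61, edgeR adjusted p = 0.0072), and MPK6 (-1.21 ± 0.25, edgeR adjusted p = 0.0047). MPK3, MPK4, MPK11, MKK2 and the phosphatase MKP1 were kept. All 13 were called higher in Col at 2 h and 6 at 24 h, against 18.7% and 11% of all genes tested. Of the 13, 6 fell in no pattern. Of 10 calcium-dependent protein kinases, 9 were called higher in Col at 2 h and 2 at 24 h, and 3 fell in no pattern. The lost genes were 4: CPK1, CPK4, CPK29 and CPK32. CPK29 (AT1G76040) had 81.5, 70.6 and 59.2 CPM in Col against 19.9, 15.8 and 19.2 CPM in fls2 at 2 h. At 24 h Col had 18.9, 19.5 and 27.5 CPM and fls2 17.1, 15 and 16.4 CPM, with no overlap and a difference of 0.44 ± 0.20 that did not pass (edgeR adjusted p = 0.13). CPK5 and CPK28, the first an activator of defence signalling and the second known to restrain it through BIK1, were kept.

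**Figure D4:**
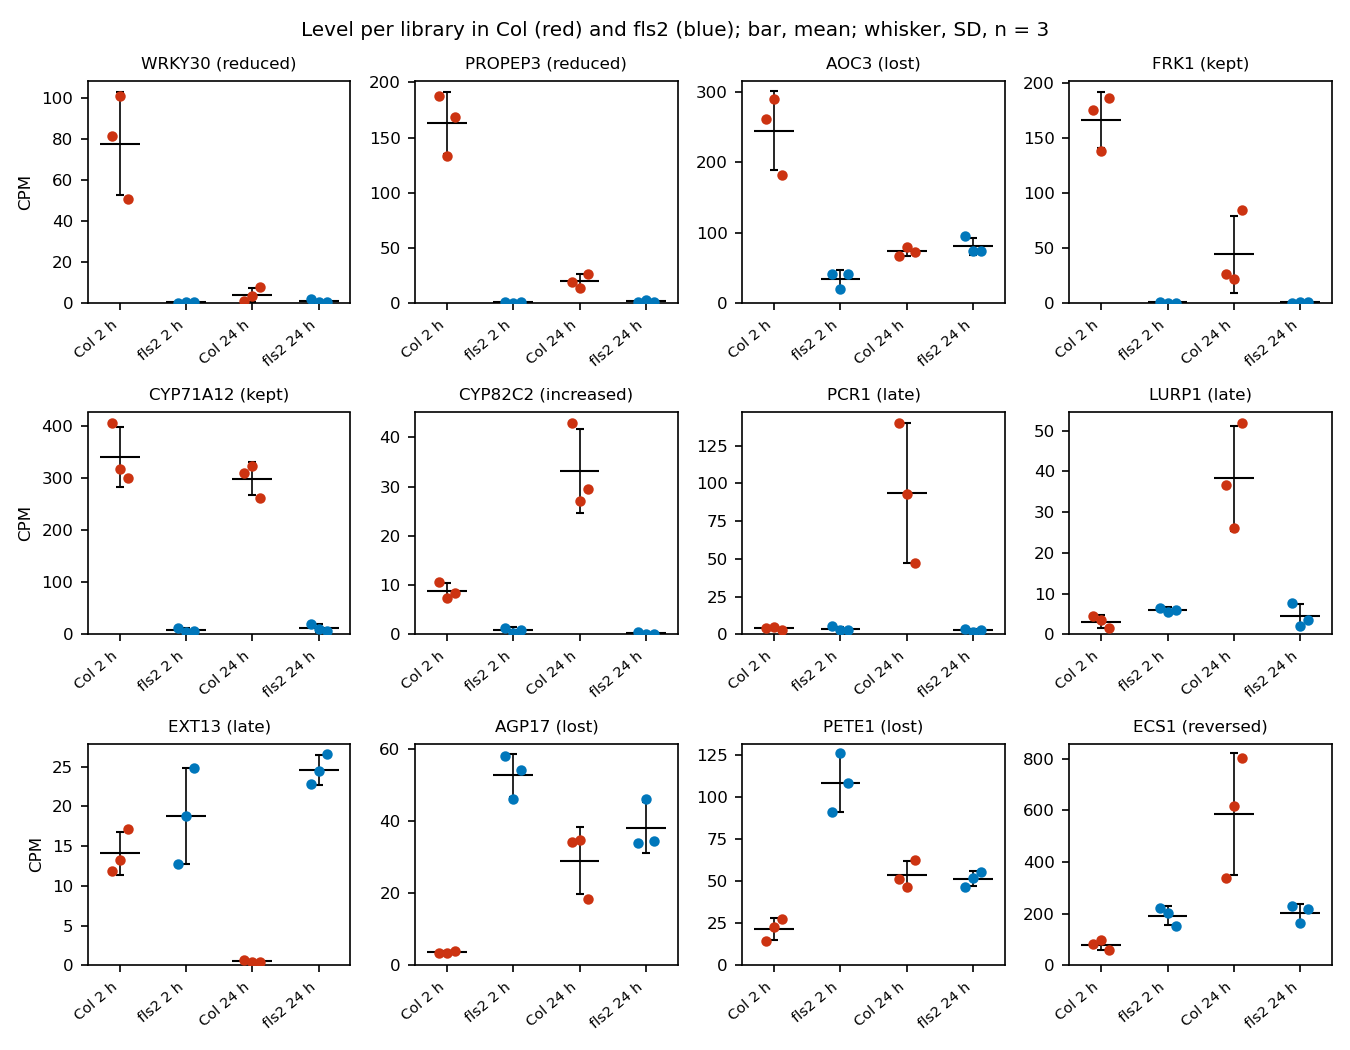
Levels in CPM (linear axis from 0) of 12 genes in each of the 3 libraries of Col (red) and fls2 (blue) at 2 h and 24 h; bars are means and whiskers SD. WRKY30 and PROPEP3 fall towards fls2 at 24 h, CYP71A12 stays high, PCR1, LURP1 and EXT13 separate at 24 h, and ECS1 changes order.

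In the indole glucosinolate list, 10 of 16 tested genes were negative and 0 positive (6.04% and 4.5% of all genes tested). The regulator MYB51, CYP83B1, SOT16, CYP81F2, IGMT2, the myrosinase PEN2 and the transporter PEN3 were reduced, and UGT74B1 and IGMT1 were lost. IGMT2 (AT1G21120), a methyltransferase of the indole side chain, had 346, 327 and 245 CPM in Col and 5.93, 3.94 and 3.44 CPM in fls2 at 2 h. Its 24 h levels were 24.4, 34 and 35.3 CPM in Col and 7.77, 8.73 and 3.59 CPM in fls2. Col stayed above fls2 in every library, by far less at 24 h (interaction -3.88 ± 0.56, edgeR adjusted p = 0.00034). IGMT1 and IGMT2 are close copies between which the counting could split reads. CYP81F3, a related enzyme, was late and lower in Col at 24 h (-1.06 ± 0.26).

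In the list for camalexin and indole carbonyl nitriles, 5 of 12 tested genes were negative and 1 positive (6.04% and 4.5% of all genes). The tryptophan genes ASA1, TSA1 and TSB1 were reduced, as was PAD3, the last enzyme of camalexin synthesis. PAD3 (AT3G26830) had 260, 244 and 199 CPM in Col and 23.2, 28.2 and 15.7 CPM in fls2 at 2 h, and 32.7, 75.7 and 68 CPM in Col and 30.5, 23.6 and 23.2 CPM in fls2 at 24 h. The groups did not overlap at either time, and at 24 h Col library 1 lay just above the highest fls2 library (interaction -2.20 ± 0.38, edgeR adjusted p = 0.0013). CYP71A12 (AT2G30750), which acts on indole acetaldoxime on the way to indole carbonyl nitriles, was kept. Its close copy CYP71A13 was kept as well, and the counting could split reads between them. It had 405, 316 and 299 CPM in Col at 2 h and 310, 323 and 262 CPM at 24 h, with fls2 at 13, 3.53 and 6.79 CPM and then 19.9, 9.71 and 6.36 CPM. The 2 h and 24 h ranges of Col overlapped, and all Col libraries exceeded all fls2 libraries (interaction -0.81, edgeR adjusted p = 0.43).

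CYP82C2 (AT4G31970), which hydroxylates indole carbonyl nitrile, was the 1 member that increased. It had 10.6, 7.39 and 8.35 CPM in Col at 2 h and 42.9, 27.1 and 29.6 CPM at 24 h. In fls2 it had 1.35, 0.174 and 0.912 CPM and then 0.511, 0.0542 and 0.146 CPM. Col was above fls2 throughout and highest at 24 h, and fls2 was near the limit of counting (interaction 3.72 ± 0.92, edgeR adjusted p = 0.013). Without fls2 library 1 of 2 h the edgeR adjusted p was 0.063 (0.0024 to 0.13 over the alternatives).

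Jasmonate synthesis genes were higher in Col at 2 h, and at 24 h LOX4 alone of those with a called interaction was still called higher. Of 13 tested genes, 9 were negative and 0 positive (6.04% and 4.5% of all genes), with a median interaction of -1.90. Of these 9, LOX3, AOC3, OPR3, OPCL1 and ACX1 were lost, LOX4 was reduced, and AOS, AOC1 and AOC2 were reversed. AOC3 (AT3G25780), an allene oxide cyclase, had 261, 290 and 182 CPM in Col and 42.1, 20.1 and 41.4 CPM in fls2 at 2 h. At 24 h it had 67, 80.3 and 73 CPM in Col and 95.1, 73.6 and 74.4 CPM in fls2. The groups were separate at 2 h and overlapped at 24 h (interaction -2.97 ± 0.41, edgeR adjusted p = 0.00026). AOC2 (AT3G25770) went from 75.6, 93.8 and 72 CPM in Col against 26.3, 14.5 and 26.6 CPM in fls2 at 2 h to 6.43, 8.3 and 17.9 against 27.8, 27.6 and 44.3 CPM at 24 h. Every Col library was above fls2 at the first time and below it at the second (2 h 1.84 ± 0.39; 24 h -1.61 ± 0.39; interaction -3.45 ± 0.56, edgeR adjusted p = 0.00074). AOS, the enzyme before the cyclases, had a difference of 0.95 ± 0.21 at 2 h and -0.95 ± 0.21 at 24 h. The AOC genes are close copies, and the counting could split their reads.

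Of 26 jasmonate signalling and output genes, 4 were negative and 0 positive (6.04% and 4.5% of all genes). JAZ1 and JAZ10, repressors that jasmonate induces, were lost, and so was the aminotransferase TAT3. JAZ10 (AT5G13220) had 43.5, 31.4 and 27.6 CPM in Col and 12.8, 3.88 and 10.3 CPM in fls2 at 2 h, and 16.8, 16.8 and 18.6 CPM in Col and 34.7, 13.3 and 21.2 CPM in fls2 at 24 h (interaction -2.33 ± 0.55, edgeR adjusted p = 0.011). The separation seen at 2 h was gone at 24 h, when fls2 libraries lay on both sides of Col. TAT3 (-3.39 ± 0.87) had an adjusted p of 0.051 by edgeR without fls2 library 2 of 2 h, with 0.00075 to 0.22 over the alternatives. CORI3 (AT4G23600), a cystine lyase gene induced by jasmonate, was late and lower. It had 19.4, 21.1 and 33 CPM in Col and 41.7, 9.38 and 48.5 CPM in fls2 at 2 h, but 3.88, 4.37 and 2.77 CPM in Col and 150, 86.1 and 66.4 CPM in fls2 at 24 h. The 2 h groups overlapped and the 24 h groups were far apart (interaction -4.34 ± 0.74, edgeR adjusted p = 0.0011).

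Protein folding genes of the endoplasmic reticulum were higher in Col at 2 h as well. Of 16 tested, 8 were negative and 0 positive, against 6.04% and 4.5% of all genes. BIP1, BIP2, BIP3, ERDJ3B and the lectin chaperone CNX1 were lost, and CRT3, ERO1 and the transcription factor BZIP60 were reduced. BIP1 and BIP2 are close copies, and the counting could split their reads. BIP3 (AT1G09080), an HSP70 chaperone, had 361, 193 and 685 CPM in Col and 9.48, 4.05 and 10.2 CPM in fls2 at 2 h. It had 5.04, 2.03 and 13.4 CPM in Col and 3.69, 1.19 and 4.42 CPM in fls2 at 24 h. The groups overlapped at 24 h, and the level fell with time in Col by 5.91 ± 0.86 on the log2 scale (interaction -4.56 ± 1.08, edgeR adjusted p = 0.011). Heat shock genes of the cytosol and plastid gave 3 negative calls of 14, HSP90.1, FES1A and MBF1C. That number was 0 without Col library 1 or fls2 library 3 of 2 h, 5 without fls2 library 2 of 24 h, and 1 without any of Col library 2 of 2 h, fls2 library 2 of 2 h, Col library 2 or 3 of 24 h or fls2 library 3 of 24 h.

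Several flg22 marker genes were called at both times without a called interaction. FRK1 (AT2G19190), a receptor-like kinase gene used as a marker of flg22 perception, had 175, 138 and 186 CPM in Col at 2 h and 26.5, 22.2 and 84.3 CPM at 24 h, while fls2 had 1.24, 0.637 and 0.506 CPM and 0.681, 0.814 and 1.41 CPM. It remained above fls2 in every library. Its interaction of -2.21 ± 0.71 was not called (edgeR adjusted p = 0.056). The interaction was called without Col library 3 of 24 h (edgeR adjusted p = 0.00094) and without fls2 library 1 of 2 h (edgeR adjusted p = 0.042). It was also called without replicate 3, without a filter, with DESeq2 and under either replicate block (0.00094 to 0.26 over the alternatives). Whether FRK1 was kept or reduced therefore depends on the setting. The class III peroxidase gene PRX52 (AT5G05340), whose product takes part in lignin formation, had 162, 192 and 255 CPM in Col at 2 h and 47.2, 31.1 and 64.2 CPM at 24 h. Its fls2 levels were 0.485, 1.51 and 0.76 CPM and 0.34, 0.38 and 0.776 CPM. Effects were 7.80 ± 0.47 at 2 h and 6.53 ± 0.47 at 24 h (interaction -1.27, edgeR adjusted p = 0.26). PER4, another peroxidase gene, had effects of 6.83 ± 0.50 and 5.19 ± 0.47. Its interaction (-1.64 ± 0.65, edgeR adjusted p = 0.12) was called with DESeq2, with the 12 libraries alone and with the replicate block within each time (0.018 to 0.63 over the alternatives). The NADPH oxidases RBOHD and RBOHF were kept too.

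Salicylic acid genes took several courses. Among 36 tested genes for salicylic acid and N-hydroxypipecolic acid, 5 were positive and 5 negative, and the median was -0.02. Of all genes tested, 4.5% were positive and 6.04% negative. Kept higher genes numbered 14, against 5.59% of all genes tested, including the regulators EDS1, PAD4, NPR1, NPR3, NPR4, CBP60G and SARD1 and the enzymes PBS3 and FMO1. SARD1 had effects of 1.53 ± 0.43 at 2 h and 2.82 ± 0.42 at 24 h, and PBS3 of 4.55 ± 0.37 and 4.69 ± 0.39. In contrast, ICS1, the entry enzyme of salicylic acid synthesis, was reduced (-1.64 ± 0.37) and the exporter EDS5 was lost (-2.36 ± 0.36). WRKY40 (AT1G80840), a repressor of defence genes, had 96, 94.3 and 94.6 CPM in Col and 4.31, 1.1 and 7.95 CPM in fls2 at 2 h, and 33.5, 31.5 and 32 CPM in Col and 22.4, 8.73 and 7.91 CPM in fls2 at 24 h. The Col libraries lay close together at each time and fell, while fls2 was called as rising (interaction -3.09 ± 0.60, edgeR adjusted p = 0.0029). The negative count was 3 without Col library 2, fls2 library 2 or fls2 library 3 of 2 h, or fls2 library 1 of 24 h.

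ACS2 and ACS7, which make the ethylene precursor, were kept (3.61 ± 0.27 and 3.35 ± 0.31 at 24 h). ACS6 and ACS8 were reduced and ACO4 was lost, giving 3 negative and 1 positive of 16 tested ethylene genes. Over all genes tested, 6.04% were negative and 4.5% positive. The positive gene, ARD3, lost its call without any 1 of 10 libraries (edgeR adjusted p 0.00033 to 0.32 over the alternatives). ACS6 (AT4G11280) had 81.7, 64.9 and 81.2 CPM in Col and 7.43, 3.71 and 6.68 CPM in fls2 at 2 h, and 27.3, 30 and 39.5 CPM in Col and 10.4, 9.06 and 8.44 CPM in fls2 at 24 h. Col remained higher in every library, by less than at 2 h (interaction -1.88 ± 0.35, edgeR adjusted p = 0.0021). Of 13 phenylpropanoid and lignin genes, 7 were kept higher and 4 were negative, the cinnamoyl-CoA reductase gene CCR2 with -2.88 ± 0.49, edgeR adjusted p = 0.0011. That 4 was 7 without Col library 3 of 24 h, 2 without Col library 1 or 2 of 2 h, Col library 1 of 24 h or fls2 library 3 of 24 h, 1 without Col library 3 of 2 h, fls2 library 1 or 3 of 2 h or Col library 2 of 24 h. Glutathione transferases gave 8 negative calls of 19, and 5 without fls2 library 2 of 2 h or fls2 library 1 of 24 h. GSTU12 (AT1G69920) had 237, 204 and 143 CPM in Col and 2.69, 0.637 and 1.42 CPM in fls2 at 2 h against 16.2, 24.9 and 29.3 CPM in Col and 6.07, 4.45 and 2.96 CPM in fls2 at 24 h. Its groups stayed separate (interaction -4.54 ± 0.56, edgeR adjusted p = 0.00012).

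ABI5 (AT2G36270), a bZIP transcription factor of abscisic acid responses, was lost. It had 22, 28.1 and 12.6 CPM in Col and 1.51, 0.348 and 1.32 CPM in fls2 at 2 h. At 24 h it had 5.58, 6.21 and 4.44 CPM in Col and 6.53, 6.13 and 3.25 CPM in fls2. Col fell and fls2 rose until the groups overlapped (interaction -4.25 ± 0.60, edgeR adjusted p = 0.00027). ABCG40, which imports abscisic acid, had -4.77 ± 0.73, edgeR adjusted p = 0.0005. Of the 17 tested abscisic acid genes, ABI5 alone was negative and RAB18 alone positive, against 6.04% and 4.5% of all genes. RAB18 was at or below 2.02 CPM in every library. The hexose transporter gene STP13 and the polyol transporter gene PMT5 were reduced. PMT5 (AT3G18830) had 248, 300 and 275 CPM in Col and 28.7, 24.3 and 30.7 CPM in fls2 at 2 h, and 65.2, 56 and 149 CPM in Col and 45.3, 45.9 and 54.9 CPM in fls2 at 24 h. The groups did not overlap at either time, and Col library 3 of 24 h was far above the other 2 (interaction -2.41 ± 0.36, edgeR adjusted p = 0.00043).

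Of the 10 increased genes named by the rule, 5 higher and 5 lower, CYP82C2 and SEX4 lost the interaction call without 1 of the 12 libraries. For SEX4, a starch phosphatase gene, it was either Col library 1 of 2 h (edgeR adjusted p = 0.063) or fls2 library 2 of 2 h (0.051); alternatives spanned 0.0034 to 0.16. UPI (AT5G43580), a protease inhibitor gene induced by fungal and insect attack, had 158, 101 and 120 CPM in Col and 73.5, 38.1 and 54.9 CPM in fls2 at 2 h. It had 1950, 1220 and 1090 CPM in Col and 220, 79.7 and 129 CPM in fls2 at 24 h. Both genotypes rose with time and Col rose further (interaction 2.13 ± 0.47, edgeR adjusted p = 0.0073). EARLI1 (AT4G12480), a lipid transfer family gene linked to systemic resistance, had 368, 389 and 570 CPM in Col and 215, 197 and 190 CPM in fls2 at 2 h, and 1740, 1110 and 1190 CPM in Col and 174, 159 and 189 CPM in fls2 at 24 h. Its change in fls2 was not called (interaction 1.82 ± 0.36, edgeR adjusted p = 0.0032). For the urea transporter DUR3 the larger gap came with a fall in fls2 (-1.45 ± 0.21) and no called change in Col (0.42 ± 0.20; interaction 1.87 ± 0.29, edgeR adjusted p = 0.00061). WRKY61 had an interaction of 1.93 ± 0.42, edgeR adjusted p = 0.0063.

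Of the 130 late higher genes, 117 were called as rising in Col between 2 h and 24 h. PCR1 (AT1G14880), of the plant cadmium resistance family, had 4.08, 4.78 and 2.8 CPM in Col and 5.33, 3.13 and 2.89 CPM in fls2 at 2 h. It had 140, 93 and 47.1 CPM in Col and 3.69, 1.52 and 2.57 CPM in fls2 at 24 h. Col libraries overlapped fls2 at 2 h and were all far above it at 24 h (interaction 5.13 ± 0.61, edgeR adjusted p = 8.6e-05). LURP1 (AT2G14560), named for its late induction by a downy mildew and needed for resistance to it, had 4.38, 3.56 and 1.43 CPM in Col and 6.57, 5.39 and 6.03 CPM in fls2 at 2 h. Its levels at 24 h were 36.7, 26.1 and 51.9 CPM in Col and 7.72, 2.12 and 3.4 CPM in fls2. Every Col library was below fls2 at 2 h, a difference that did not pass (-0.94 ± 0.56, edgeR adjusted p = 0.21), and above it at 24 h (interaction 4.06 ± 0.78, edgeR adjusted p = 0.0026). XND1, a NAC gene of xylem cells, went from 4.13 ± 0.813 to 34.2 ± 23.8 CPM in Col (mean ± SD, n = 3), with fls2 at 2.73 ± 0.428 and 2.48 ± 0.321 CPM (interaction 3.19 ± 0.54, edgeR adjusted p = 0.001).

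Of the 36 salicylic acid genes, 4 were late higher (0.606% of all genes tested were): the outputs PR1 and AED1, the regulator WRKY70 and the salicylic acid hydroxylase gene DMR6. PR1 (AT2G14610), the classic marker of that hormone, had 2.7, 2.67 and 0.495 CPM in Col and 7.16, 4.69 and 6.68 CPM in fls2 at 2 h, and 158, 130 and 97.6 CPM in Col and 37.6, 0.217 and 14.3 CPM in fls2 at 24 h. The fls2 libraries of 24 h differed widely from each other, and all lay below Col (interaction 4.56 ± 1.30, edgeR adjusted p = 0.031). Its call was lost without any 1 of 8 libraries: the adjusted p was 0.06, 0.053 and 0.074 without Col libraries 1, 2 and 3 of 2 h, 0.057 and 0.055 without fls2 libraries 1 and 3 of 2 h, 0.05 and 0.054 without Col libraries 1 and 2 of 24 h, and 0.053 without fls2 library 3 of 24 h, by edgeR, with 0.0041 to 0.15 over the alternatives. WRKY70, which promotes these outputs, had effects of 0.17 ± 0.37 at 2 h and 2.51 ± 0.39 at 24 h, and DMR6 of 0.26 ± 0.21 and 2.19 ± 0.21. AED1 was below 5 CPM in every library, and its interaction of 5.22 ± 0.91 came with a called fall in fls2 (-4.48 ± 0.71) and none in Col (0.74 ± 0.55). PR5 and BGL2 (PR2), outputs of the same hormone, had no call at either time.

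Other late higher genes named were PAO, bHLH38, bHLH39 and DIN4. PAO (AT3G44880), which opens the chlorophyll ring in senescing leaves, had 7.62, 8.95 and 12.1 CPM in Col and 11.3, 10.3 and 15 CPM in fls2 at 2 h. It had 42.2, 45.9 and 26.5 CPM in Col and 18.6, 15.7 and 14.6 CPM in fls2 at 24 h, when the groups no longer overlapped (interaction 1.58 ± 0.34, edgeR adjusted p = 0.0054). The senescence genes SAG13, NAC6 and NAP were kept higher, and SAG21 was lost. bHLH39, a regulator of iron uptake, rose in Col from 4.83 ± 1.98 to 24.8 ± 14 CPM (mean ± SD, n = 3), against 5.39 ± 2.23 and 3.49 ± 0.357 CPM in fls2 (interaction 2.98 ± 0.76, edgeR adjusted p = 0.017). Its adjusted p was 0.051 without Col library 1 of 2 h and 0.05 without fls2 library 1 of 2 h by edgeR (0.00085 to 0.11 over the alternatives). Of 12 iron genes 4 were positive, bHLH38 and bHLH39 late and NAS1 and NAS4 lost lower. The number was 2 without Col library 3 or fls2 library 1 of 24 h, and 1 without library 1 of either genotype at 2 h. Of 22 tested sugar starvation genes, 1 was positive, DIN4, of branched-chain amino acid breakdown, and 1 negative, DIN11, against 4.5% and 6.04% of all genes. Without single libraries these counts ranged from 0 to 4 positive, the highest without fls2 library 1 of 24 h, and from 1 to 2 negative. The call of DIN4 (2.08 ± 0.57, edgeR adjusted p = 0.025) was lost without any 1 of 6 libraries. It had edgeR adjusted p values of 0.054 and 0.061 without Col libraries 1 and 3 of 2 h, 0.069 without fls2 library 3 of 2 h, 0.07 without Col library 1 of 24 h, and 0.065 and 0.051 without fls2 libraries 2 and 3 of 24 h, with 0.00067 to 0.2 over the alternatives.

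In the root hair and root wall list 12 of 14 tested genes were negative, 11 of them late and AGP30 increased, and 0 were positive. Over all genes tested, 6.04% were negative and 4.5% positive. The count was 12 without each single library and 6 to 11 with 1 replicate number left out. EXT13 (AT5G35190), an extensin of the root hair wall, had 11.9, 13.3 and 17.1 CPM in Col and 12.8, 18.8 and 24.8 CPM in fls2 at 2 h. It had 0.728, 0.431 and 0.454 CPM in Col and 22.8, 24.4 and 26.6 CPM in fls2 at 24 h. The 2 h groups overlapped and each Col library of 24 h was below 1 CPM (interaction -5.09 ± 0.51, edgeR adjusted p = 2.8e-05). RSL4, the transcription factor that sets root hair growth, had effects of 0.31 ± 0.47 at 2 h and -3.29 ± 0.56 at 24 h, and the expansin EXPA7 of 0.83 ± 0.39 and -2.07 ± 0.43. The summed level of the 14 genes was 222 to 274 CPM in Col and 226 to 303 CPM in fls2 at 2 h, and 31.6 to 54.3 against 234 to 336 CPM at 24 h. None of the 14 was without counts in any group. These are whole seedlings, so fewer cells of a type and less RNA per cell cannot be told apart. RHD6, upstream of RSL4, was not called at either time, nor were SHR, SCR, GL2, PLT1 and PLT2 among the root identity markers. WER was called at 24 h only, with no called interaction. Of 15 Casparian strip and suberin genes, CASP2 alone was negative, and it lost that call without any 1 of 9 libraries, while 3 genes were negative without fls2 library 3 of 24 h (0.012 to 0.3 over the alternatives by edgeR adjusted p).

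BAM5 (AT4G15210), a beta-amylase gene, was late and lower as well. It had 47.2, 35 and 105 CPM in Col and 49.1, 13.9 and 90.6 CPM in fls2 at 2 h, and 3.88, 3.2 and 4.79 CPM in Col and 178, 88.2 and 369 CPM in fls2 at 24 h. The groups overlapped at 2 h, and at 24 h every Col library was below every fls2 library (interaction -6.02 ± 0.99, edgeR adjusted p = 0.00081). MAM3 (AT5G23020), an enzyme of aliphatic glucosinolate chain elongation, had 166, 167 and 166 CPM in Col and 151, 96.1 and 189 CPM in fls2 at 2 h, and 33.1, 61.4 and 38.7 CPM in Col and 119, 104 and 105 CPM in fls2 at 24 h (interaction -1.50 ± 0.34, edgeR adjusted p = 0.0085). It fell in Col below all fls2 libraries. Other aliphatic glucosinolate genes, MAM1, CYP83A1 and SOT18, were kept lower. GH3.3, which conjugates auxin, had -2.76 ± 0.63 and was called as rising in fls2 (2.04 ± 0.45) but not as changing in Col (-0.72 ± 0.44). Of 23 auxin genes 3 were negative, GH3.3, IAA1 and IAA19, and none positive, against 6.04% and 4.5% of all genes. Of 15 starch genes 3 were negative, BAM5, GPT2 and SEX4, and 1 without Col library 1 or fls2 library 2 of 2 h.

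Photosynthesis genes were lower in Col at 2 h and were not called at 24 h, when their median effect was -0.23. Of 31 tested light reaction genes, 30 were lower in Col at 2 h (16.1% of all genes were) and 0 were called at 24 h. The interaction was positive for 21 and negative for 0 (4.5% and 6.04% of all genes), with a median of 1.34. The count was 9 without Col library 3 of 24 h, 10 without Col library 1 of 2 h or fls2 library 1 of 24 h, and 11 without fls2 library 2 of 24 h. PETE1 (AT1G76100), a plastocyanin, had 14.4, 22.9 and 27.5 CPM in Col and 91, 126 and 108 CPM in fls2 at 2 h. It had 51.2, 46.3 and 62.6 CPM in Col and 46.6, 52 and 55.6 CPM in fls2 at 24 h. Col rose and fls2 fell to a common level (Col 1.30 ± 0.24; fls2 -1.07 ± 0.24; interaction 2.38 ± 0.34, edgeR adjusted p = 0.00031). LHCB4.2 (AT3G08940), a minor antenna protein of photosystem II, had 31.4, 59.1 and 94.8 CPM in Col and 265, 386 and 373 CPM in fls2 at 2 h, and 75, 108 and 200 CPM in Col and 89.1, 113 and 160 CPM in fls2 at 24 h. The change with time was called in fls2 (-1.50 ± 0.41, edgeR adjusted p = 0.019) and not in Col (1.05 ± 0.40, edgeR adjusted p = 0.054; interaction 2.55 ± 0.57). The summed level of the 31 genes was 6530 to 11600 CPM in Col and 26900 to 34400 CPM in fls2 at 2 h, then 11200 to 20100 and 15700 to 19400 CPM at 24 h. At 24 h the ranges overlapped through 1 Col library; the other 2 Col sums, 11200 and 11600 CPM, lay below every fls2 library. LHC genes are a family of close copies, and the counting could split their reads.

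In the list of chlorophyll synthesis and chloroplast regulators, 6 of 11 genes were positive and 0 negative (4.5% and 6.04% of all genes). The positive genes were 5 of 7 enzymes and 1 of 4 regulators. Among the enzymes were PORC (2.31 ± 0.50, edgeR adjusted p = 0.0063) and CRD1 (1.68 ± 0.34, edgeR adjusted p = 0.0037). The Calvin cycle was mixed: 3 of 13 were positive, or 6 without Col library 1 of 24 h, but 1 without Col library 1 or fls2 library 2 of 2 h, Col library 3 of 24 h or fls2 library 1 of 24 h. CP12-2 (AT3G62410), a regulator of Calvin cycle enzymes, had 9.54, 7.17 and 11.3 CPM in Col and 40.7, 42.6 and 33 CPM in fls2 at 2 h, and 110, 98.7 and 75.5 CPM in Col and 71.6, 71.4 and 48.9 CPM in fls2 at 24 h. Col rose above every fls2 library, a 24 h difference that did not pass (edgeR adjusted p = 0.13) (interaction 2.62 ± 0.37, edgeR adjusted p = 0.00026). The Rubisco small subunit genes RBCS1A and RBCS3B, the fructose bisphosphatase HCEF1 and TKL1 stayed lower in Col at both times.

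AGP17 (AT2G23130), an arabinogalactan protein, was lower in Col at 2 h. It had 3.42, 3.39 and 4.07 CPM in Col and 57.9, 46 and 54 CPM in fls2 at 2 h, and 34.1, 34.6 and 18.3 CPM in Col and 33.8, 46.2 and 34.4 CPM in fls2 at 24 h. Col was low in all 3 libraries at 2 h and overlapped fls2 at 24 h (interaction 3.46 ± 0.35, edgeR adjusted p = 2.8e-05). GASA6, a gibberellin-regulated gene, had 4.01 ± 0.55, edgeR adjusted p = 0.00024, and the sigma factor SIG4, which directs plastid transcription, 2.79 ± 0.55, edgeR adjusted p = 0.0029. In the list of expansins and xyloglucan enzymes 6 of 24 were positive and 1 negative; the positive count was 2 without Col library 1 or fls2 library 2 of 2 h or fls2 library 1 of 24 h, and 3 without Col library 2 or fls2 library 3 of 2 h, Col library 2 of 24 h, or fls2 library 2 or 3 of 24 h. Over all genes tested, 4.5% were positive and 6.04% negative. EXPA3 had an interaction of 2.59 ± 0.58, edgeR adjusted p = 0.0078. RALF23 (AT3G16570), a peptide that restrains immune signalling, was reduced lower: it had 12.9, 10.3 and 13.6 CPM in Col and 72.3, 70.7 and 70.3 CPM in fls2 at 2 h, and 46.5, 53.5 and 36.8 CPM in Col and 69, 73.7 and 62.2 CPM in fls2 at 24 h. The groups did not overlap at either time, and the time change was called in Col and not in fls2 (interaction 1.95 ± 0.26, edgeR adjusted p = 0.00019). CAX1, a vacuolar calcium exchanger, and the germin-like gene GER1 were reduced as well (1.80 ± 0.45 and 2.53 ± 0.46). Among kept lower genes, MYB111, a flavonol regulator, had effects of -3.09 ± 0.45 and -2.38 ± 0.42, and the mechanosensitive channel family gene MSL5 of -2.07 ± 0.30 and -2.21 ± 0.29.

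Reversed genes changed order. ECS1 (AT1G31580), a cell wall protein gene linked to resistance, had 80.6, 96.8 and 59.2 CPM in Col and 222, 203 and 152 CPM in fls2 at 2 h, and 336, 616 and 803 CPM in Col and 228, 164 and 218 CPM in fls2 at 24 h. Each Col library was below fls2 at 2 h and above it at 24 h (interaction 2.81 ± 0.50, edgeR adjusted p = 0.0015). HBI1 (AT2G18300), a bHLH factor that promotes growth and dampens immunity, had 6, 6.39 and 7.14 CPM in Col and 13.9, 20.4 and 16.8 CPM in fls2 at 2 h, and 9.95, 16.6 and 15.4 CPM in Col and 5.56, 6.78 and 8.83 CPM in fls2 at 24 h. Here Col rose (1.10 ± 0.31) and fls2 fell (-1.27 ± 0.31; interaction 2.37 ± 0.44, edgeR adjusted p = 0.0021). In the other direction, GSTU25 went from 55 ± 19.2 CPM in Col against 22.4 ± 2.91 in fls2 at 2 h to 7.08 ± 2.36 against 32.8 ± 4.34 at 24 h (mean ± SD, n = 3; interaction -3.50 ± 0.43, edgeR adjusted p = 0.00011).

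Several lists held no called interaction. Of 21 mitosis and DNA replication genes, 17 clock genes, 6 guard cell markers and 6 root identity markers, 0 were called by edgeR, against 10.5% of all genes. Unadjusted p-values below 0.05 were found for 3, 3, 0 and 2 of them in that order, and DESeq2 called 0, 0, 0 and 1. With the replicate block within each time, 3 mitosis and replication genes were positive, and 1 clock gene was positive and 2 negative. Without 1 library, 1 clock gene was negative without Col library 1 of 24 h, and 1 root identity marker without Col library 2 or 3 or fls2 library 2 of 24 h. The flavonoid and anthocyanin list had 1 call of 15, the repressor MYBL2 (-2.39 ± 0.50, edgeR adjusted p = 0.0047). Its enzymes had none, although DFR was called lower in Col at both times. The count was 2 without Col library 3 of 24 h. Of 19 sugar transport and invertase genes, 4 were negative and 2 positive, SUC2, a sucrose transporter of the phloem, being late and higher (1.46 ± 0.26 at 24 h). The 2 became 0 without Col library 1 of 2 h, Col library 1 of 24 h, fls2 library 2 of 2 h or fls2 library 3 of 24 h, and 1 without Col library 2 of either time or fls2 library 1 or 2 of 24 h.

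**Figure D5:**
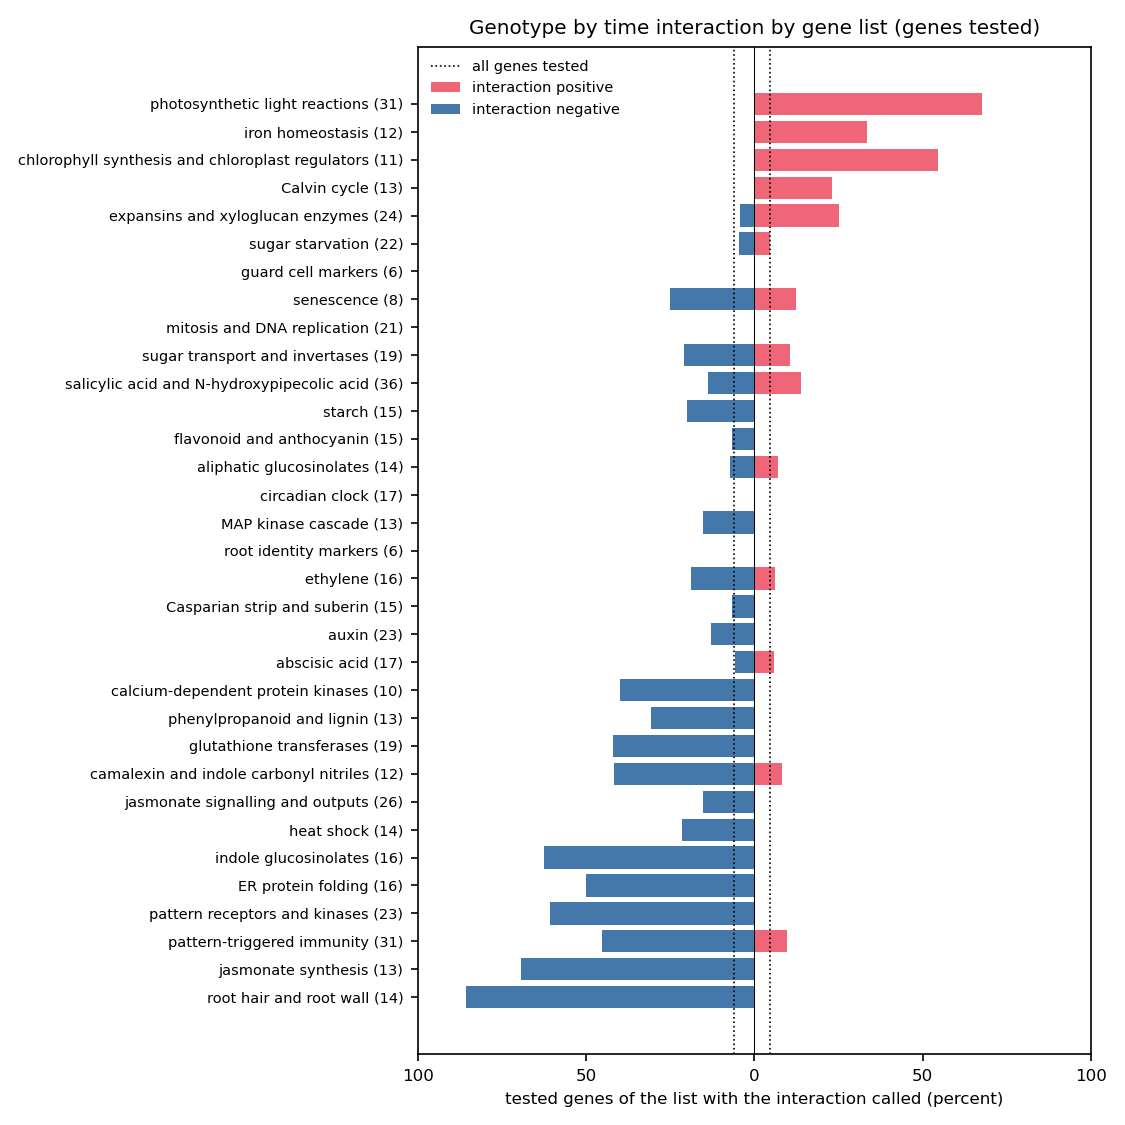
For each gene list, with the number of genes tested in brackets, the bars give the percent with a positive (right) or negative (left) interaction; dotted lines mark the percent over all genes tested, 4.5% positive and 6.04% negative. Root hair, jasmonate synthesis and perception lists extend to the left and photosynthesis and chlorophyll lists to the right.

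The sugar transporter mutant stp1/4/13 keeps FLS2 and was sampled in the same table at both times. Its change from 2 h to 24 h was compared with that of Col, which shares the Col libraries with the interaction above. It differed in 6 genes (4 positive, 2 negative; 0.0186% and 0.00932% of genes tested, 0.028% in all), and 1469 had an unadjusted p below 0.05. DESeq2 called 19 positive and 33 negative. Single Col or fls2 libraries left out moved the positive count between 1 and 9 and the negative count between 0 and 16. Both were highest without Col library 3 of 24 h. No single stp1/4/13 library was left out, so these ranges do not cover that mutant's libraries. MYBL2 (AT1G71030), named above, had 5.82 CPM in Col at 2 h and 2.09 CPM at 24 h (means of 3 libraries), but 8.02 and then 21.4 CPM in stp1/4/13 (2.89 ± 0.45, edgeR adjusted p = 0.037). M17 (AT2G41260) went from 2.46 to 24.4 CPM in stp1/4/13 and from 1.22 to 0.098 CPM in Col (6.89 ± 0.64). The other 4 genes were CYP71B26 (1.60), AT2G39518 (1.30), the alternative oxidase AOX1A (-1.59) and AT5G09570 (-2.70). For the genes described above, stp1/4/13 gives levels from libraries that are not in the contrast, though they share its fit. WRKY30 had 63 ± 36.2 CPM at 2 h and 3.77 ± 2.47 CPM at 24 h in stp1/4/13 (mean ± SD, n = 3), PROPEP3 86.1 ± 27.8 and 18.9 ± 10.4 CPM. AOC3 had 134 ± 29.1 and 26.6 ± 11.5 CPM, and PETE1 40.7 ± 13.6 and 91.5 ± 3.88 CPM. PCR1 had 3.6 ± 1.53 and 11.7 ± 4.59 CPM, and EXT13 13.9 ± 5.27 and 0.873 ± 0.535 CPM. In all 6 the mean moved in the direction seen in Col, though PCR1 rose by less. These 6 are a selection from the genes named, and MYBL2 moved the other way.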

How the data were processed

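RNA of whole seedlings was sequenced from the 3′ end (strand-specific BrAD-seq, per the labels' protocols). The deposited tables hold raw counts per gene; fastp 0.19.7, STAR 2.6.1b, featureCounts 1.6.0 and TAIR10 are named in the submitters' processing notes. CPM from such counts does not scale with gene length. The 18 libraries of 2 h and 24 h were fitted together with edgeR 4.0.16 in R 4.3.3 (TMM, filterByExpr, quasi-likelihood test, Benjamini-Hochberg adjustment over all genes, threshold 0.05), and 9 libraries of 10 h separately. Each value after ± is a standard error unless named SD. Groups came from sample titles. Deviations of same-numbered Col and fls2 samples from their group means correlated at 0.413, 0.242 and 0.53 at 24 h, each over 0.1. The numbers may thus pair the 24 h groups. The main fit holds no replicate term, so its 24 h effects and interactions are unpaired. With a replicate block within each time, 3721 interactions were called, against 2262. Gene names came from RefSeq for TAIR10.1. The script was tested on simulated data: 66 of 100 interactions of log2 size 2 and 10 of 100 of size 1 were recovered, with 4 false among 80 calls. Members and lists were chosen with earlier results of these data known. Genes named by rule were, at a mean log2 CPM of at least 3, the 5 with the widest change in each pattern and direction and up to 3 called genes per list; others were chosen after their values were seen. Alternatives were DESeq2 1.42.0, RLE size factors, no or a stricter filter (CPM of 1 in 3 libraries), replicate blocks, the 12 libraries alone, a log2 change of at least 1, and libraries left out. Samples treated with 2-deoxy-d-glucose were not used here.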

Additional observations from a re-analysis of the deposited data

Results flagged for a closer look

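In 10 named genes the difference between Col and fls2 passed the test in opposite directions at 2 h and 24 h. The interaction, which is the 24 h effect less the 2 h effect, was called in each. The genes were picked by its size among those with opposite calls, so that call adds no separate support. Values are log2 differences of Col over fls2. Those higher in Col at 2 h and lower at 24 h had interactions of AOC1 at -3.81 (2 h 1.89, 24 h -1.91), GSTU25 at -3.50 (2 h 1.29, 24 h -2.21), AOC2 at -3.45 (2 h 1.84, 24 h -1.61), IAA1 at -2.41 (2 h 0.95, 24 h -1.46) and AOS at -1.90 (2 h 0.95, 24 h -0.95). Those lower at 2 h and higher at 24 h were EXO at 2.18 (2 h -0.76, 24 h 1.42), HBI1 at 2.37 (2 h -1.38, 24 h 0.99), SNRK2-8 at 2.61 (2 h -1.13, 24 h 1.48), ECS1 at 2.81 (2 h -1.29, 24 h 1.52) and WAK2 at 2.91 (2 h -1.44, 24 h 1.47). All had the same sign of the interaction in each of the 3 replicate numbers. So did all 108 named genes with a called interaction. The genes were chosen from these same libraries, so the shared sign adds no support. AOC1 and AOC2 are close copies, so their values may not be separate.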

How the results depend on the processing

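No called interaction of the 118 named genes changed direction under any alternative run. Changes of direction were not counted for other genes or for the other comparisons. The uncalled interactions of MSL5 (-0.80 to 0.28), PRP4 (-0.60 to 0.24) and UGT73C1 (-0.20 to 0.79) changed sign among the alternatives. Interaction calls numbered 2940 with DESeq2, 2274 with RLE size factors, 2237 without a filter, 2316 with the stricter filter and 2015 with the 12 libraries alone, against 2262. DESeq2 gave 92 reduced lower and 30 reversed lower genes, 19 positive and 33 negative genes for stp1/4/13 against Col, and 90.9% of kept lower genes called the same way at 10 h. For stp1/4/13, RLE factors and the stricter filter each gave 2 positive and 1 negative, and no filter 2 positive. A log2 change of at least 1 left 2620 higher and 1923 lower genes at 2 h, 1472 and 790 at 24 h, 730 and 219 kept, 15 and 2 increased, 9 and 7 reversed, and 21 reduced lower.

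Samples share replicate numbers, but no label ties a number to a trial. Deviations of same-numbered Col and fls2 samples correlated at 0.202, 0.09 and 0.021 at 2 h, not all over 0.1, so for the interaction the pairing is only a hint from the data. A replicate block called 2908 genes, with 103 reduced lower, 16 increased lower, 36 reversed lower, 10 negative for stp1/4/13, and 58.2% of lost higher and 91.9% of kept higher genes called alike at 10 h. The block within each time called 1678 positive and 2043 negative genes, 2601 lower at 24 h, 796 reduced higher and 216 lower, 1182 kept lower, 58 and 25 increased, 241 and 327 late, and 97 and 54 reversed. The replicate block gave 6 negative heat shock and 6 positive Calvin cycle genes, and within each time 10 jasmonate signalling, 8 phenylpropanoid, 5 ethylene and 4 MAP kinase cascade genes were negative, 3 mitosis and replication genes positive, and of the clock genes 1 positive and 2 negative. FRK1 had an edgeR adjusted p of 0.024 under the block and 0.015 within each time (0.00094 to 0.26 over the alternatives), and PER4 0.018 within each time (0.018 to 0.63).

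With 1 Col or fls2 library of 2 h or 24 h, or 1 replicate number, left out, interactions ranged over 143 to 998 positive and 290 to 1418 negative. Differences at 2 h ranged over 2375 to 4259 higher and 1675 to 3640 lower, and at 24 h over 810 to 2684 and 381 to 2415. Time changes ranged over 1168 to 3805 rises and 1312 to 4142 falls in Col, and 0 to 3179 and 0 to 2736 in fls2. Lost genes ranged over 128 to 674 higher and 108 to 789 lower, reduced over 110 to 436 higher and 1 to 56 lower, kept over 526 to 1387 higher and 113 to 1065 lower, late over 20 to 168 higher and 46 to 282 lower, increased over 4 to 34 higher and 1 to 19 lower, and reversed over 5 to 54 higher and 3 to 41 lower. For stp1/4/13 the ranges were 0 to 9 positive and 0 to 16 negative. At 10 h they were 3911 to 4404 higher and 3845 to 4454 lower, with 65.1 to 80.7% of lost higher, 31.8 to 48.8% of lost lower, 95.5 to 100% of reduced higher, 93.5 to 98.3% of kept higher, 89.7 to 94.6% of kept lower, 73 to 96.8% of late higher and 69.2 to 88.9% of late lower genes called alike. Without replicate 1 or 2, 495 or 479 interactions were called. Without replicate 3, a fit with the same number of samples, 2281 were called. The cause of the moves was not tested. Of 108 named genes with a called interaction, 83 were called without each single library, 25 were not, and 70 lost the call without 1 replicate number.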
